A study of Mus musculus with 2 samples.

Results

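Chromatin accessibility at the genes of 9 histone acetyltransferases other than MOF was examined in embryonic mouse skin, taken from the back at E16.5. The genes were Kat2a, Kat2b, Kat5, Kat6a, Kat6b, Kat7, Ep300, Crebbp and Hat1, chosen by name from the known families of these enzymes. Their regions were the called peaks that lay within 500 bp of a transcription start site or inside the gene body (mm10). This gave 133 of the 369634 regions found when the peaks of both libraries were merged, and 90 of these were among the 214119 regions called in both. The regions held 105 of 249619 Control peaks and 119 of 340079 MOF cKO peaks. All 9 genes had a promoter region called in both libraries, out of 15877 protein-coding genes with such a region.

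The study made 1 single-cell ATAC-seq library from Control skin and 1 from MOF cKO skin, whose labelled genotype is MOFfl/fl/K14Cre. In these embryos Cre, driven by the keratin 14 promoter, deletes MOF (Kat8) in epithelial cells, so other skin cells are not targeted by the transgene. Both groups carried the K14-H2BGFP reporter on a C57Bl/6J and CD-1 mixed background, and the labels give neither the full genotype of the Control embryos nor how many embryos were pooled. GFP-positive and GFP-negative cells were sorted and, by the labels, recombined at 5 parts to 1 part, while the study's text gives other ratios, so shares of cell types are not compared between genotypes.

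Histone acetyltransferases transfer an acetyl group from acetyl-CoA to lysines of histones and other proteins, which loosens the packing of nucleosomes and creates binding sites for bromodomain proteins. MOF acetylates histone H4 at lysine 16 and belongs to the MYST family, together with Kat5, Kat6a, Kat6b and Kat7. Kat2a and Kat2b belong to the GNAT family with its shared catalytic fold, Ep300 and Crebbp are a separate pair of broad transcriptional coactivators, and Hat1 acetylates newly made histone H4 before it is placed on DNA. In ATAC-seq a transposase cuts open chromatin, so a count of cut sites measures how accessible a region is and not how much RNA or enzyme is made.

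The Control library held 2481 cells with a median depth of 64436 cut sites within peaks. For MOF cKO these were 4348 cells and 66239.5 cut sites. Cells were sorted into classes by the promoter accessibility of marker genes, and names carry the ending "like" for that reason. There were 1699 epithelial-like cells in Control and 2644 in MOF cKO, marked by Krt5, Krt14 and Trp63, and 654 and 1251 fibroblast-like cells, marked by Col1a2, Col3a1 and Lum. Of the barcode sequences, 21 occurred in both libraries. The 2 genotypes formed separate epithelial-like clusters, and of these cluster 9 of Control, with 306 Control cells, and cluster 13 of MOF cKO, with 76 cells, were much shallower than the rest. Cluster 10 of Control, with 98 Control cells, was the deepest, at a median of 163287 sites. Its fibroblast markers Col3a1 and Lum were 2-fold above clusters that were not fibroblast-like. Levels are given as CPM, which are counts of cut sites in a promoter or region, brought to the same total of cut sites in shared regions in every class and library, as in counts per 1000000. Because there was 1 library per genotype, no difference between genotypes was tested, and the 95% intervals given here cover counting error only, not the spread between embryos or library preparations.

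In epithelial-like cells, promoter accessibility was lower in MOF cKO than in Control at 8 of the 9 genes, with log2 changes (MOF cKO over Control) from -0.54 to -0.35, and only Kat2b was not lower, although it gave -0.028 when scaled to all sites in each library's own peaks. The interval lay below 0 for those 8 genes and above 0 for Kat2b. Among all promoters tested in these cells, 85.8% were lower in MOF cKO and 78.7% had an interval below 0, so the count for the acetyltransferase genes lay near the background. The interval lay above 0 for 9.14% of all promoters. The median change of the 9 genes was -0.47, against -0.42 for all promoters, and the latter ranged from -0.56 to -0.23 with the scaling, so changes are best read relative to it. Relative to that median, the 9 genes lay between -0.13 at Kat6a and 0.53 at Kat2b. None of the 9 reached a 1.5-fold lower level, which 18.7% of all promoters did. Scaled to own peaks 6 reached it, but so did 45.3% of all promoters. None reached a 1.5-fold higher one, as 4.32% of all did. In fibroblast-like cells 6 of the 9 were lower, against 58.3% of all promoters. This count was 9 as sites per cell (90% of all promoters), 4 with cells thinned (54.1%) and 1 binarised (41.5%). The median change was -0.03 both for the 9 genes and for all promoters, and -0.32 for both as sites per cell. On that scale the epithelial-like medians were -0.29 and -0.23, so which class lost more depended on the scaling. Under the scaling used here none of the 9 was past 1.5-fold in fibroblast-like cells. Of all promoters 2.47% were lower and 4.51% higher there by that much.

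**Figure D1:**
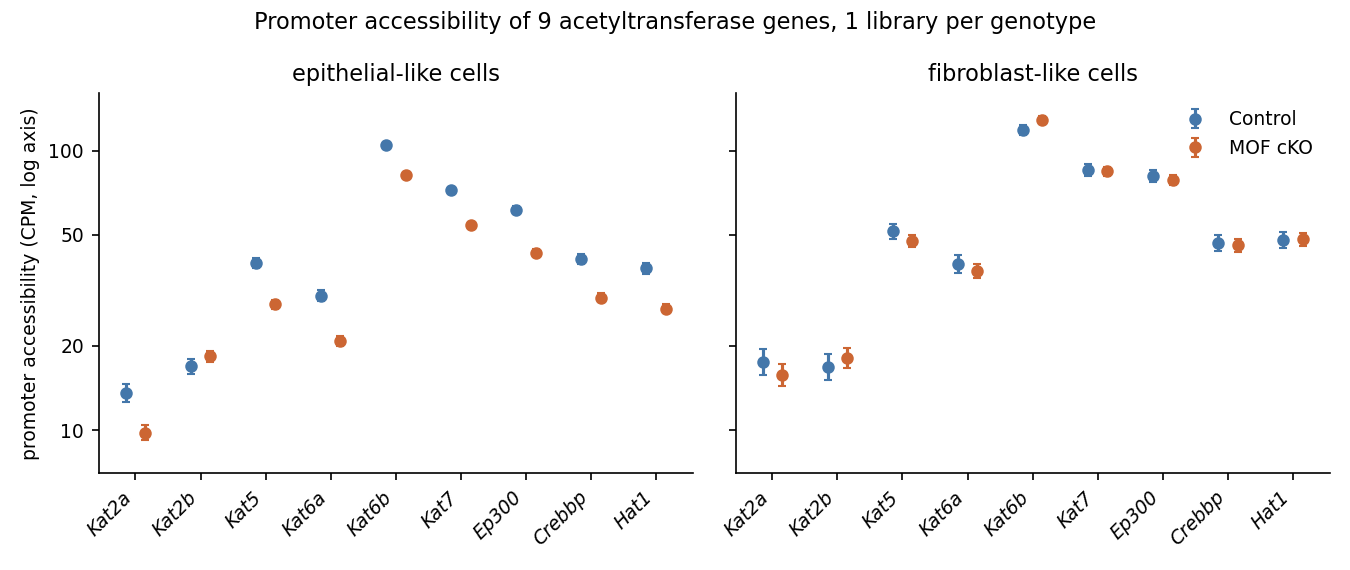
Promoter accessibility of each gene in CPM on a log axis, in epithelial-like (left) and fibroblast-like cells (right), with points for the Control and MOF cKO library and bars for the 95% Poisson intervals. In epithelial-like cells the MOF cKO point lies below the Control point for every gene except Kat2b, whose direction turns when scaled to own peaks, while in fibroblast-like cells the points lie close together.

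Kat2a (GCN5) and Kat2b (PCAF) encode closely related enzymes that serve as alternative catalytic subunits of the SAGA and ATAC coactivator complexes, which acetylate histone H3. In epithelial-like cells the Kat2a promoter (chr11:100711980-100712816) had 13.6 CPM in Control and 9.79 CPM in MOF cKO, which is -0.47 as a log2 change (95% interval -0.61 to -0.34). It was -0.07 with each cell thinned to 5000 sites. In fibroblast-like cells it had 17.5 CPM and 15.8 CPM, and the interval of the change, -0.35 to 0.05, included 0. That fibroblast-like change was -0.44 both with cells thinned and as sites per cell, so which class lost more at Kat2a depended on the setting. Kat2a is a compact gene of 7.72 kb, and no region was called inside its body apart from 1 at the promoter of the neighbouring gene Dhx58.

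The Kat2b promoter had, in the same cells, 16.9 CPM in Control and 18.4 CPM in MOF cKO. Its log2 change of 0.12 (0.01 to 0.23), which was -0.028 when scaled to own peaks, placed it at percentile 89.2 of all promoters, counted from the largest loss. The other 8 genes lay between percentiles 24.8 and 62.0. In fibroblast-like cells the Kat2b change was 0.11 (-0.09 to 0.31), and it was -0.18 as sites per cell and 0.40 with cells thinned. Relative to the median of all promoters the values were 0.53 in the epithelial-like and 0.14 in the fibroblast-like class. Kat2b has 2 promoter regions. The CpG-rich one at the gene start (chr17:53566472-53567378) went from 13.4 to 12.8 CPM in epithelial-like cells, with an interval of -0.20 to 0.06. A weaker, CpG-poor one at an internal start site (chr17:53583639-53584611) went from 3.49 to 5.60 CPM, a log2 change of 0.68 (0.45 to 0.92), and was also higher in fibroblast-like cells, by 1.03 (0.33 to 1.78). The positive sign of the Kat2b sum thus came from the internal start site, and the region at the gene start did not differ from 0 beyond counting error. Its change of -0.07 still lay above the median of all promoters, -0.42, which its interval did not include.

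The promoter sequences of Kat2b and Kat5 are shown because, of the genes whose RefSeq promoter window (GRCm38.p6) overlaps their strongest promoter region, Kat2b changed least and Kat5 most under the scaling used here. With cells thinned, Kat2a changed less than Kat2b, and Kat7, Crebbp and Hat1 changed more than Kat5. The stretches hold the 140 bases (chr17:53566721-53566860, plus strand) and the 107 bases (chr19:5610238-5610344, minus strand) of these windows that come before the first base of any annotated transcript. CpG dinucleotides are in capitals.
Kat2b: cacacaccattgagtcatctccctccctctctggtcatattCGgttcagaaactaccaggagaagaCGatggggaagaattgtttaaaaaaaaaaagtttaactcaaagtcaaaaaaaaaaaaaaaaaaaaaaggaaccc
Kat5: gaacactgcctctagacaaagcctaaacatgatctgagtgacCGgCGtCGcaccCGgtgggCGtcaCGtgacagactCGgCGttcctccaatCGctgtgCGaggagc
The Kat2b promoter region also held the word TGAGTCA, 1 of the 2 forms of the AP-1 motif (TGACTCA or TGAGTCA, each the reverse complement of the other), which is bound by Fos and Jun proteins. It is shown in capitals with its flanks (chr17:53566720-53566748, plus strand).
Kat2b AP-1 word: acacacaccatTGAGTCAtctccctccct
Such a word was present in 13.3% of all promoter regions, and in the RefSeq windows of 300 bases in 1 of 8 acetyltransferase genes against 4.65% of all windows. Kat6a has no entry in the table of windows. GGGCGG, the core of the GC box, was found on either strand in 4 of the 8 windows against 47.7% of all, and CCAAT in 4 of 8 against 37.8%. CCGGAA, the core of an ETS motif, was found in 3 of 8 against 19.1%, the E-box CACGTG in 2 of 8 against 8.03%, and TGACGTCA, the CRE, in none against 2.32%. A match of letters is a description and not evidence of binding.

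**Figure D2:**
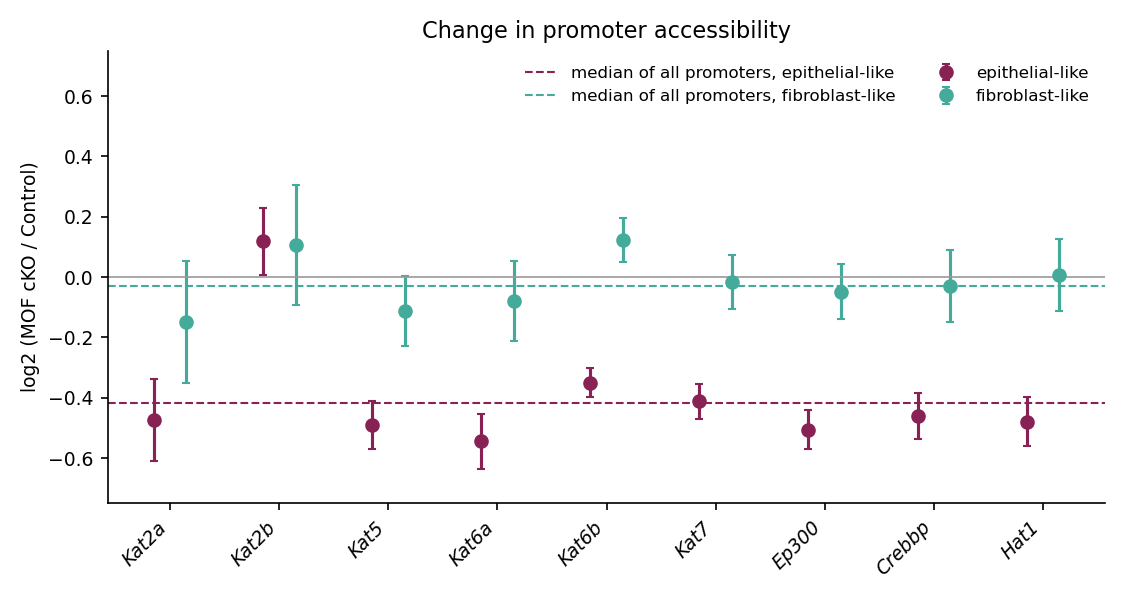
Change in promoter accessibility, log2 of MOF cKO over Control, for each gene in epithelial-like and fibroblast-like cells, with 95% conditional binomial intervals as bars and the median of all promoters in each class as dashed lines. In epithelial-like cells 8 genes lie near the dashed line at -0.42 and Kat2b lies above it at 0.12 (-0.028 when scaled to own peaks). The Kat6b point for fibroblast-like cells, at 0.12, is -0.16 as sites per cell.

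In the MYST family, to which MOF itself belongs, all 4 genes had epithelial-like intervals below 0, as did 78.7% of all promoters, and lay between percentiles 24.8 and 62.0. Kat5 (TIP60), the catalytic subunit of the NuA4 complex that acetylates histones H4 and H2A and takes part in DNA repair, was reduced in epithelial-like cells from 39.6 to 28.2 CPM, or by -0.49 (-0.57 to -0.41) in log2. Kat5 gave -0.23 with cells thinned, where the median of all promoters was -0.40. Nearly all of its sites lay in the region at the gene start (chr19:5609480-5610421), whose CpG-bearing sequence is printed above. In fibroblast-like cells Kat5 had 51.4 and 47.6 CPM, with an interval of -0.23 to 0.00 that just included 0.

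Kat6a (MOZ), a histone H3 acetyltransferase known for its role in blood stem cells and for its translocations in leukaemia, gave the lowest value of the 9 genes under the scaling used here. The lowest was Ep300 with cells thinned or with promoters within 100 bp, and Kat2a binarised. The single Kat6a promoter region (chr8:22858820-22859739) had 30.3 CPM in Control and 20.8 CPM in MOF cKO, with a log2 change of -0.54 (-0.64 to -0.45). In fibroblast-like cells it had 39.3 and 37.2 CPM, and the interval of -0.21 to 0.05 included 0. The Kat6a promoter was rich in bases G and C, with 73.7% of its sequence, at percentile 98.3 of promoter regions.

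Kat6b (MORF), the close relative of Kat6a that is known from developmental syndromes, had the most accessible promoter of the 9 by total sites, at 104 CPM in Control and 81.8 CPM in MOF cKO epithelial-like cells. Its change of -0.35 (-0.40 to -0.30) was the smallest loss among the 8 genes that were lower, except with cells thinned, where Kat2a and Kat5 lost less. In fibroblast-like cells Kat6b was higher in MOF cKO, with 118 and 129 CPM and a log2 change of 0.12 (0.05 to 0.20) that turned to -0.16 as sites per cell, the only one of the 9 whose fibroblast-like interval excluded 0. Of all promoters in these cells, 10.5% had an interval above 0 and 17.9% below it. The main Kat6b region (chr14:21500153-21501390) carried both values. Of the fibroblast-like clusters, cluster 7 held 538 MOF cKO and 2 Control cells, and clusters 3 and 5 held cells of both libraries. All 3 MOF cKO fibroblast-like clusters, between 123 and 137 CPM, lay above both Control clusters, at 117 and 118 CPM, which was true of 5.56% of all promoters. At Kat2a and Kat5 they all lay below, as at 14.1% of all promoters.

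Kat7 (HBO1), which acetylates histone H3 at lysine 14 and histone H4 and takes part in DNA replication licensing, had epithelial-like levels of 72.0 CPM in Control and 54.1 CPM in MOF cKO, with a log2 change of -0.41 (-0.47 to -0.35). Its 2 adjoining promoter regions changed alike, by -0.43 and -0.40. In fibroblast-like cells the change was -0.02 (-0.11 to 0.07). Scaled to the summed length of the promoter regions of each gene, Kat7 was the most open of the 9, with 72.8 CPM per kb in the epithelial-like cells of Control. This was percentile 97.1 among promoters, and Kat2b was the least open, at percentile 26.3. Kat6b had 48.9 CPM per kb over both its regions, but its main region alone had 83.4, which is above Kat7. Kat8, the gene of MOF itself, changed by -0.41 (-0.48 to -0.34) in epithelial-like cells, from 48.8 to 36.7 CPM. Its promoter is not known to lie in the deleted part of the gene, so this value does not check the deletion.

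Ep300 (p300) and Crebbp (CBP) are paralogous coactivators that acetylate histone H3 at lysine 27 at enhancers and promoters. Ep300 went, in epithelial-like cells, from 61.2 to 43.1 CPM, a log2 change of -0.51 (-0.57 to -0.44), and Crebbp from 41.0 to 29.8 CPM, a change of -0.46 (-0.54 to -0.38), so their intervals overlapped. The 2 shared Ep300 promoter regions differed. The upstream one (chr15:81584823-81585708) went from 45.5 to 29.0 CPM, by -0.65 (-0.72 to -0.57), and the one just downstream (chr15:81585864-81586702) from 15.7 to 14.05 CPM, by -0.16 (-0.28 to -0.04), so the intervals of the neighbouring regions did not overlap. In fibroblast-like cells the same regions changed by -0.15 (-0.26 to -0.04) and 0.18 (0.01 to 0.35), again with the upstream region lower relative to the downstream one. Each of the 2 genes also had a weak start-site region called in Control only, at 0.768 CPM for Ep300 and 0.879 CPM for Crebbp, for which no MOF cKO value exists.

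Hat1, whose enzyme works in the cytoplasm and nucleus with the histone chaperones Rbbp4 and Rbbp7, went from 37.9 to 27.2 CPM at its promoter (chr2:71388781-71389650), a log2 change in epithelial-like cells of -0.48 (-0.56 to -0.40). In fibroblast-like cells it had 47.9 and 48.1 CPM, a change of 0.01 (-0.11 to 0.13). Hat1 has 2 regions inside its gene body, both called in MOF cKO only.

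Within the epithelial-like class the change was also followed by cluster, with 4 clusters of at least 50 cells from each library. At Kat2a, Kat5 and Crebbp every MOF cKO cluster lay below every Control cluster, and at the other 6 genes the ranges overlapped. Of all promoters, 21.2% lay below in this way. At Crebbp and Kat5 the gap was small, with the highest MOF cKO cluster at 39.17 and 33.9 CPM and the lowest Control cluster at 39.25 and 35.2 CPM. Those MOF cKO values are of the shallow cluster 13 and rest on 67 and 58 sites. For Kat6a, Kat6b, Kat7, Ep300 and Hat1 the overlap came from the shallow cluster 13, in which Kat6a reached 54.4 CPM against at most 37.4 CPM in a Control cluster and Kat7 reached 101 CPM against at most 76.5. Without the shallow clusters, 3 clusters remained from each library, and 8 of the 9 genes lay below without overlap, against 63.1% of all promoters. Kat2b still overlapped, at 14.6 to 19.6 CPM in Control and 16.4 to 19.6 CPM in MOF cKO clusters. The part of cell depth in these values was not tested.

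Inside the genes, away from the start sites, 116 regions were called, of which 75 were shared, 12 were called in Control only and 29 in MOF cKO only. Those called in 1 library only made up 10.3% for Control and 25.0% for MOF cKO, against 9.74% and 33.3% of gene-body regions of all genes. Kat6b alone held 46 of the 116 regions, Kat6a 23, Kat2b 19, Kat7 and Crebbp 11 each, Ep300 4 and Hat1 2, while Kat2a and Kat5 held none. In epithelial-like cells 10 of the 75 shared regions (13.3%) were lower by at least 2-fold in MOF cKO, against a background of 13.7%, and 8 (10.7%) were higher by at least 2-fold, against 16.6%. Their median change was -0.23, against -0.13 for all gene-body regions, and 45 of the 75 were lower by any amount, against 56.4%. In fibroblast-like cells 5 were lower (background 7.98%) and 8 higher (10.7%) by at least 2-fold, and 40 were lower by any amount, against 49.2%. By cluster, all MOF cKO epithelial-like clusters lay above all Control clusters at 6 of the 75 regions (8%), against 8.24% of all gene-body regions, and below them at 9 (12%), against 7.24%. Most of these shares thus lay near the rest of the genome, with somewhat fewer 2-fold gains and more regions below by cluster, on small counts. The regions named next were chosen for the size of their change or their level, so their cluster ranges are a description.

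**Figure D3:**
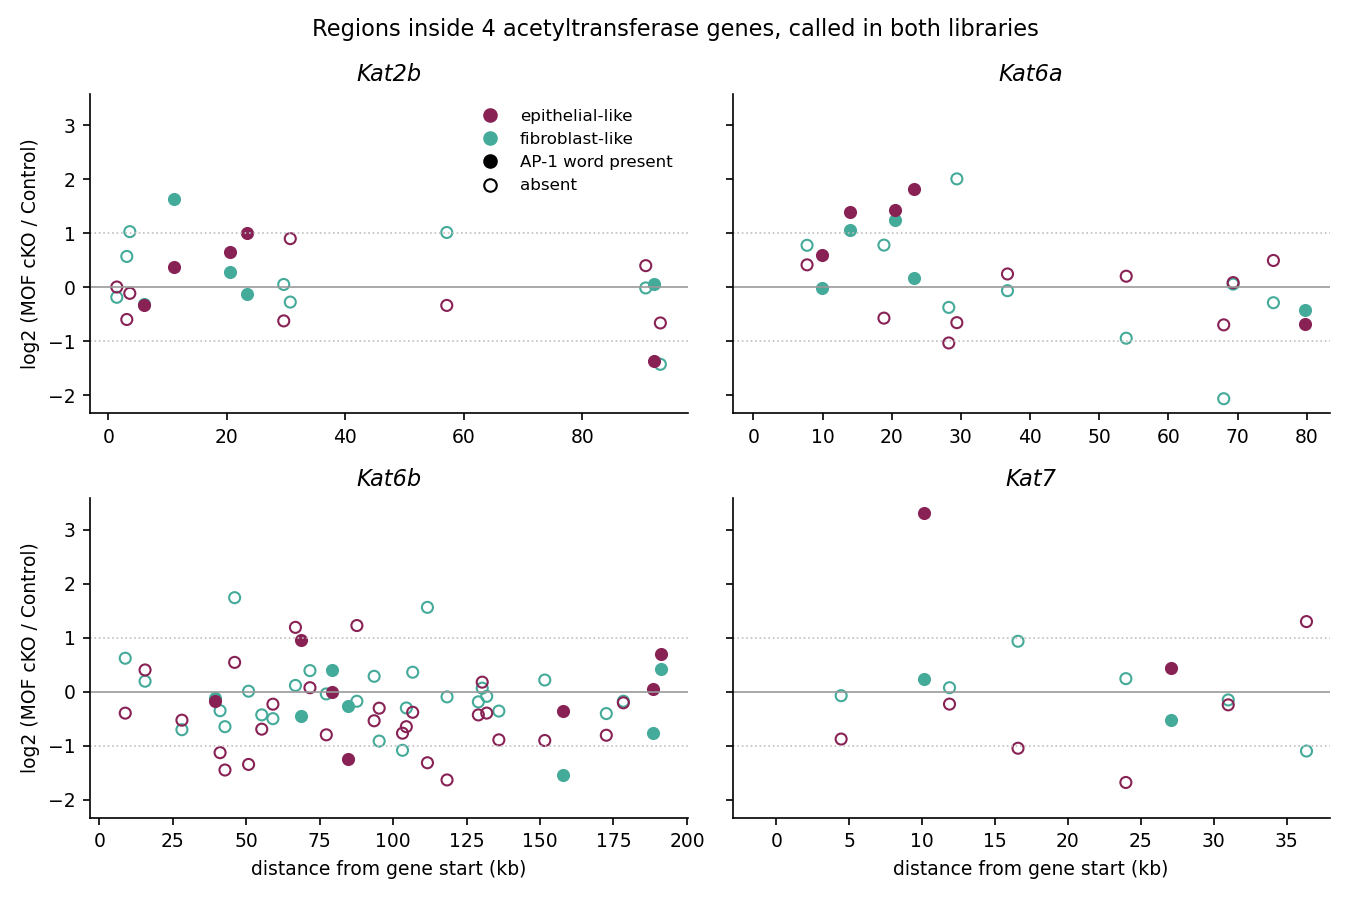
Change of each shared region inside Kat2b, Kat6a, Kat6b and Kat7, log2 of MOF cKO over Control, against the distance from the gene start in kb, in epithelial-like and fibroblast-like cells; filled points hold an AP-1 word, and dotted lines mark 2-fold. The highest point is a Kat7 region at 3.32 in epithelial-like cells and 0.23 in fibroblast-like cells, and 3 regions of Kat6a lie between 1.40 and 1.83 in epithelial-like cells.

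The Kat7 gene held both extremes. A region over a coding exon (chr11:95299685-95300613) had, among epithelial-like cells, 1.07 CPM (125 sites) in Control and 10.6 CPM (2202 sites) in MOF cKO, with a log2 change of 3.32 (2.95 to 3.71). The 4 Control clusters lay between 0.654 and 1.498 CPM and the 4 MOF cKO clusters between 3.51 and 11.4 CPM, without overlap. In fibroblast-like cells it had 0.480 and 0.564 CPM, and the interval of -0.98 to 1.54 included 0. Immune-like cells, only 48 in Control and 283 in MOF cKO, had 3.08 and 3.59 CPM. A second region over another coding exon (chr11:95285820-95286729) went the other way in epithelial-like cells, from 6.42 to 2.01 CPM, a log2 change of -1.68 (-1.93 to -1.43), and the cluster ranges again did not overlap, at 4.49 to 7.74 CPM in Control and 0.896 to 4.01 CPM in MOF cKO. In Control this second region exceeded fibroblast-like cells by 4.18 on the log2 scale. It had no sites in immune-like or muscle-like cells of either library, nor in mural-like or endothelial-like cells of MOF cKO, and the interval reached up to 3.78 CPM in the immune-like cells of Control and 0.757 CPM in those of MOF cKO, below the epithelial-like levels. The interval reached above the epithelial-like level in muscle-like cells, at 7.13 CPM in Control and 8.21 CPM in MOF cKO, and in MOF cKO also in mural-like and endothelial-like cells, at 2.21 and 4.96 CPM, so no lower level is shown in these. The Kat7 promoter lay between these extremes with its change of -0.41.

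The central 300 bases of these Kat7 regions are shown as the sequences of the largest gain and the largest loss (GRCm38.p6, plus strand, chr11:95300000-95300299 and chr11:95286125-95286424). The AP-1 word is in capitals, 41 bases from the centre of the region that was higher, and it is absent from the region that was lower.
Kat7 higher: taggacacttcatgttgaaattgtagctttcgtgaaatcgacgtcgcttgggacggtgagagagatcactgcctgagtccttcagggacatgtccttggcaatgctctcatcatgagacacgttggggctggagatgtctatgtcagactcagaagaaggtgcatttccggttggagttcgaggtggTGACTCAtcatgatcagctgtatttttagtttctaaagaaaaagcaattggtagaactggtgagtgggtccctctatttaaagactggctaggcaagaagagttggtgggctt
Kat7 lower: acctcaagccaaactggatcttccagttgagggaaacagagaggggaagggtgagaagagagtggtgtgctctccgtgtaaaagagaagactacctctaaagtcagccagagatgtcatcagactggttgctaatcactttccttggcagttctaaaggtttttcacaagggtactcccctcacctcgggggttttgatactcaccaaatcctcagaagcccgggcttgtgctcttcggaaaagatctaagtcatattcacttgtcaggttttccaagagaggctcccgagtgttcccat
The AP-1 word of the first sequence lies within the coding exon itself.

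Kat6a held 3 intronic regions, of 14 shared (21.4%, background 16.6%), that were at least 2-fold higher in MOF cKO epithelial-like cells. They lay 13933, 20529 and 23213 bases from the nearest start site. Between the first and the second lay a weak shared region (chr8:22877846-22878981) that did not follow them, at -0.57 (-1.19 to 0.05). The first (chr8:22873038-22873927), the strongest region inside the gene by its summed epithelial-like level in both libraries, as for all regions called strongest here, went from 5.78 to 15.2 CPM, a log2 change of 1.40 (1.23 to 1.57). The others, chr8:22879610-22880547 and chr8:22882290-22883234, changed by 1.43 (0.95 to 1.94) and 1.83 (1.61 to 2.04). In fibroblast-like cells the first 2 were also higher, by 1.06 (0.68 to 1.45) and 1.24 (0.27 to 2.32), and the last was not, at 0.18 (-0.20 to 0.56). All 3 held an AP-1 word. The epithelial-like cluster ranges did not overlap for the first, at 4.24 to 7.49 CPM in Control and 9.35 to 16.49 CPM in MOF cKO, nor for the last, at 2.48 to 4.55 and 8.18 to 14.2 CPM, and they overlapped for the second. The fibroblast-like cluster ranges overlapped for all 3. Another Kat6a intron region (chr8:22887293-22888284), named after its value was seen, was lower, by -1.03 (-1.58 to -0.48).

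Of the 8 acetyltransferase gene regions at least 2-fold higher in epithelial-like cells, 5 held an AP-1 word, as did 2 of the 10 that were lower and 16 of the 57 in between. Over the gene bodies of all genes the shares were 63.5%, 9.67% and 21.9%, and 27.1% of all such regions held one. The acetyltransferase genes thus had counts of the same order as the rest of the genome.

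Kat6b, the longest of the 9 genes at 191 kb, held 34 of the 75 shared regions. Of these 6 (17.6%, background 13.7%) were at least 2-fold lower and 2 (5.88%, background 16.6%) at least 2-fold higher. The largest losses were at intronic regions, by -1.63 (-2.28 to -1.004) at chr14:21599163-21600415, by -1.45 (-1.73 to -1.17) at chr14:21523713-21524725 and by -1.34 (-2.04 to -0.66) at chr14:21531604-21532905. None of these 3 held an AP-1 word, and all were less accessible in epithelial-like than in fibroblast-like cells of Control, with log2 ratios of -1.49, -2.09 and -2.92. The others, named after their values were seen, were mixed. The most accessible (chr14:21522115-21523002) went from 16.8 to 7.70 CPM, by -1.13 (-1.26 to -0.99), and stood 4.68 above fibroblast-like cells in Control, while chr14:21565481-21566418, lower by -1.24 (-2.01 to -0.47), held an AP-1 word and stood at -3.42. The region inside Kat6b that was strongest in epithelial-like cells (chr14:21585477-21586404) stood 3.98 above fibroblast-like cells on the log2 scale in Control, and went from 20.3 to 13.01 CPM in epithelial-like cells, a change of -0.64 (-0.76 to -0.53). Its cluster ranges overlapped, at 13.04 to 24.6 CPM in Control and 5.85 to 16.9 CPM in MOF cKO. In fibroblast-like cells another region (chr14:21612821-21613754) was stronger, at 32.9 and 31.0 CPM. Over the gene, 8 of the 34 regions were at least 2-fold higher in epithelial-like than in fibroblast-like cells of Control and 13 were at least 2-fold lower. Over all gene-body regions these shares were 41.3% and 24.3%, and over the 75 regions of the 9 genes they were 30.7% and 21.3%.

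Kat2b held 7 of 13 regions (53.8%) that were at least 2-fold more accessible in epithelial-like than in fibroblast-like cells of Control, and none the other way. Over all gene-body regions these shares were 41.3% and 24.3%. Its strongest internal region (chr17:53586872-53587879), in an intron 3249 bases from the internal start site, had epithelial-like levels of 12.7 CPM in Control and 19.8 CPM in MOF cKO, with a log2 change of 0.65 (0.52 to 0.77). The 4 Control clusters, at 11.3 to 13.5 CPM, lay below the 4 MOF cKO clusters, at 17.5 to 23.0 CPM. The fibroblast-like change was 0.28 (0.06 to 0.50). A region far downstream (chr17:53658472-53659468) was lower, by -1.36 (-1.83 to -0.91), at the low levels of 1.71 and 0.667 CPM, and it held an AP-1 word. The regions inside Ep300 (chr15:81606427-81607483) and Crebbp (chr16:4160305-4161222) that were strongest in epithelial-like cells changed there by 0.02 (-0.25 to 0.30) and -0.22 (-0.41 to -0.04). The remaining region named by the rule, at the downstream end of Kat7 (chr11:95273424-95274350), was higher in epithelial-like cells, by 1.30 (0.97 to 1.65), and in fibroblast-like cells gave -1.10 with an interval of -2.36 to 0.12. This Kat7 region held no AP-1 word.

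Across cell classes, the summed promoter level of the 9 genes was lowest in epithelial-like cells, at 417 CPM in Control and 313 CPM in MOF cKO. The median of all promoters was lowest there too, at 20.7 CPM per kb in Control and 15.9 CPM per kb in MOF cKO, against 23.5 and 23.2 in fibroblast-like and 25.9 and 26.1 in immune-like cells. Fibroblast-like cells had 505 CPM in both libraries, immune-like cells 667 and 672 CPM, and muscle-like cells 575 and 582 CPM. Mural-like and endothelial-like cells had 584 and 546 CPM in MOF cKO, and their Control values are left out because those classes held only 18 and 9 cells.

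**Figure D4:**
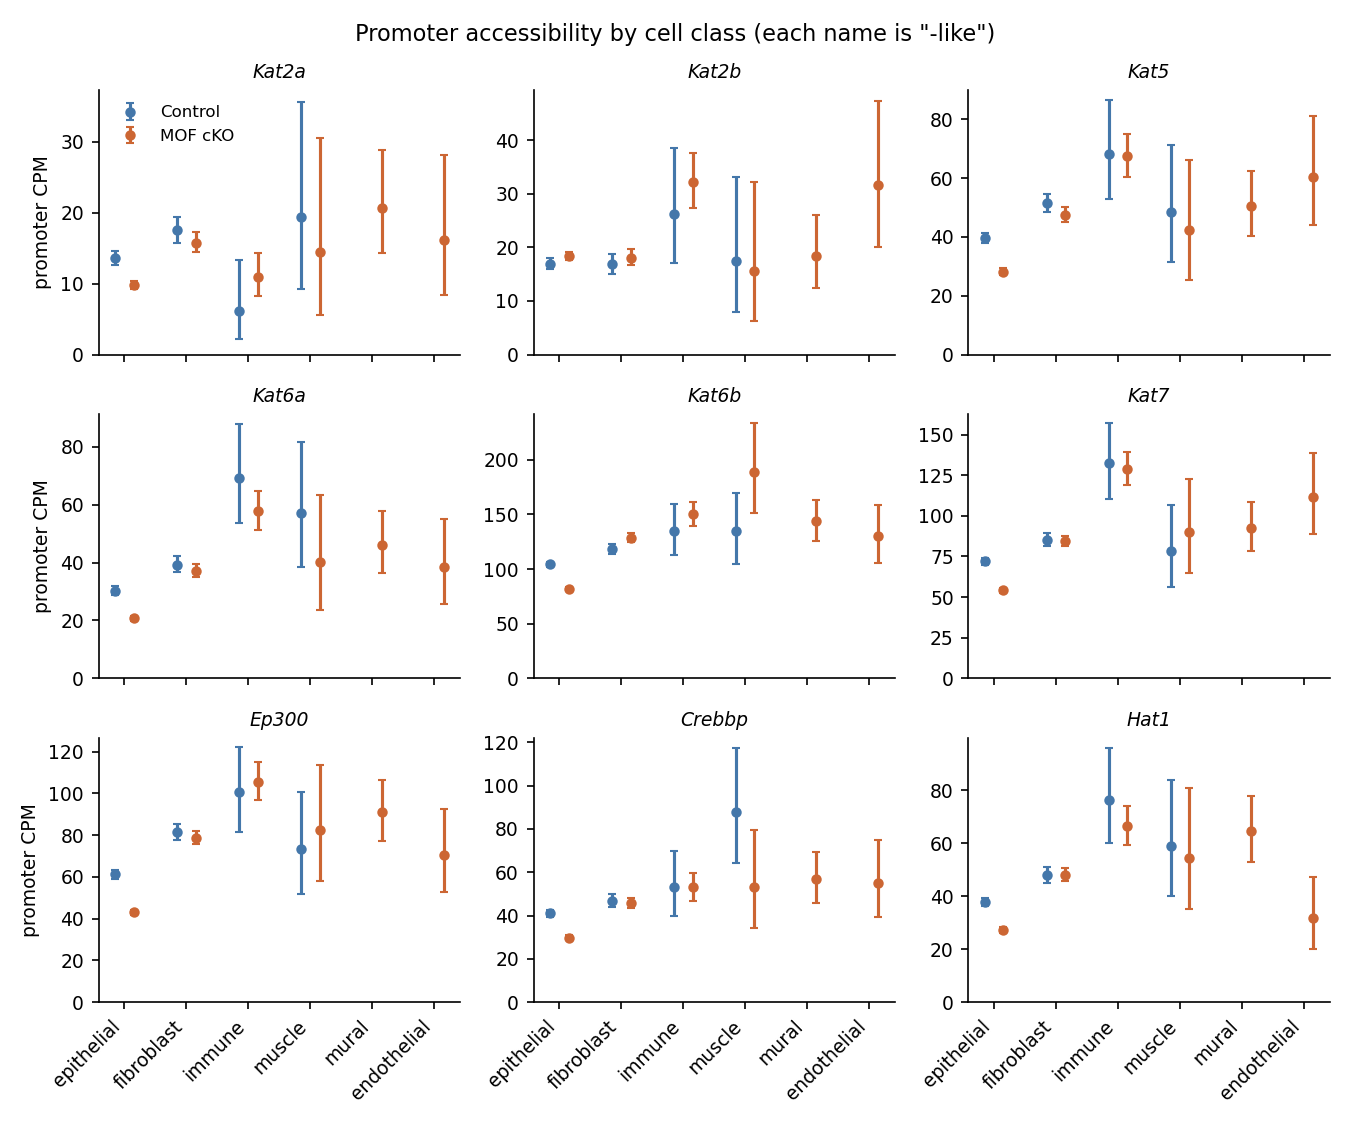
Promoter accessibility of each gene in CPM by cell class and library, with 95% Poisson intervals and classes under 20 cells left out. Epithelial-like cells had the lowest level of most genes in both libraries, and intervals of the small classes are wide.

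Immune-like cells had the highest level of Kat2b, Kat5, Kat6a, Kat7, Ep300 and Hat1 in both libraries. For Kat7 in Control this held beyond counting error, with 132 CPM against 85.4 CPM in fibroblast-like cells, the next in order. Kat2a departed from this order in Control, where immune-like cells had the lowest level, at 6.15 CPM, although the interval overlapped that of epithelial-like cells. The epithelial-like level of Kat2b was not the lowest in either library, but the lower values did not differ from it beyond counting error. In Control only the fibroblast-like value was lower. In MOF cKO the muscle-like, fibroblast-like and mural-like values were lower, and their intervals all overlapped the epithelial-like one. The highest Kat2b level in MOF cKO was in immune-like cells, at 32.1 CPM, and the lowest in muscle-like cells, at 15.6 CPM. Intervals of neighbours overlapped in 4 of the 5 steps of the order.

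The promoters most like the mean profile of the 9 genes over 10 combinations of class and library were those of Clns1a, with a Pearson r of 0.98, and of AU040320 and Ncdn, which share a promoter region, with 0.96. These were picked as the highest values, so their size is no test. The 9 genes themselves, each of which is part of the mean, ranged from 0.91 for Kat5 to -0.50 for Kat2a, so they did not follow 1 common profile. Points of the same library share its depth, and those of the small classes rest on few cells.

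The subunits that partner these enzymes were read from lists of known complexes. Of 43 partner genes, 42 were lower in MOF cKO epithelial-like cells, against 85.8% of all promoters, with a median of -0.50, and 9 were lower by at least 1.5-fold, against 18.7%. The SAGA and ATAC list of 17 genes had a median of -0.48, from -0.83 at Mbip, an ATAC subunit, to 0.08 at Trrap, the large scaffold shared with the TIP60 complex. The TIP60 list of 17 genes had a median of -0.49, with the lowest value of -1.01 at Dmap1. The list for the MOZ, MORF and HBO1 complexes had 9 genes and a median of -0.46, with -1.19 at Jade2, a scaffold of HBO1, and -0.36 at Jade3. Rbbp7 and Rbbp4, the partners of Hat1, changed by -0.65 and -0.55.

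The 18 histone deacetylase and sirtuin genes of a comparison list were all lower in epithelial-like cells, against 85.8% of all promoters, with a median of -0.45 beside -0.42. They ranged from -0.91 at Hdac8 to -0.23 at Hdac3, and 4 were lower by at least 1.5-fold, against 18.7%. In fibroblast-like cells the medians of these lists lay between -0.08 and 0.02, and the only gene past 1.5-fold was Hdac9, at -0.67 and low levels of 1.57 and 0.983 CPM. Promoters poor in CpG changed less in epithelial-like cells, with a median of -0.11 where the observed over expected CpG ratio was under 0.3, against -0.44 where it was 0.8 or more.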

How the data were processed

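Single-cell ATAC-seq matrices were analysed as deposited. The authors aligned reads to mm10 with cellranger-atac 2.0.0 and called peaks and cells in each library, and the deposited values are raw counts of cut sites per peak and barcode, without normalization. Barcodes with at least 1000 sites were kept, which left out 60 in Control. Even values made up 88.8% and 91.6% of entries, because a fragment inside a peak adds 2 cut sites, so intervals were computed on fragments (sites divided by 2). The cell counts stated in the study's text differ from the barcodes used here.

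Peaks were merged across libraries with any overlap of 1 bp. Start sites came from the GENCODE M21 annotation of protein-coding genes, and genes with several promoter regions were summed. Cells were clustered on 28 singular vectors of 50000 binarised regions with Leiden (leidenalg 0.10.2, resolution 1), and classes needed 3 markers 2-fold above other clusters. Doublets were not removed, and leaving out the cells of highest doublet score is an alternative. Clusters within the epithelial-like class could not be named. A minimum of 20 sites, summed over the libraries, was set for each feature. The intervals are exact Poisson and exact conditional binomial at 95%. Python 3.11.15, scipy 1.17.1, bedtools 2.31.1 and samtools 1.23.1 were used. The calculation was tested on simulated data.

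The genes, lists and tests were chosen with earlier results of these data known. Named regions were the 5 with the largest gain and the 5 with the largest loss in epithelial-like cells, with at least 100 sites, and the strongest region of each gene. Sequences came from RefSeq promoter windows and the GRCm38.p6 genome. Other regions were named after their values were seen.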

Additional observations from a re-analysis of the deposited data

Results flagged for a closer look

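Results are listed here where the interval of the change lay below 0 in 1 class and above 0 in the other. The difference between classes was not tested, since each class had 1 library per genotype. At the Kat6b promoter the epithelial-like change less the fibroblast-like change was -0.47, from -0.35 in the epithelial-like class and 0.12 in the other, where it turned to -0.16 as sites per cell. The median difference over all promoters was -0.39, and Kat6b lay at percentile 33.9 of it, so its difference was not unusual for a promoter. Its main region chr14:21500153-21501390 alone also gave -0.47, from -0.35 and 0.12. At the Ep300 promoter region chr15:81585864-81586702 the difference was -0.34, from -0.16 and 0.18. At the Dhx58 promoter region at the end of Kat2a (chr11:100703894-100704783) the difference was -1.66, from -0.40 (-0.70 to -0.09) and 1.26 (0.92 to 1.62), with 4.52 and 10.9 CPM in fibroblast-like cells. At the Kat6a intron region chr8:22888501-22889413 the difference was -2.66, from -0.65 (-0.85 to -0.46) and 2.01 (0.63 to 3.73), at 0.253 and 1.02 CPM in fibroblast-like cells. At the Kat6b intron region chr14:21592673-21593558 it was -2.88, from -1.31 (-2.04 to -0.60) and 1.56 (0.96 to 2.22). At the Kat7 region chr11:95282724-95283639 it was 0.97, from 0.45 (0.06 to 0.85) and -0.53 (-0.89 to -0.16). By cluster, the fibroblast-like ranges of Control and MOF cKO overlapped at the Kat6b intron region, at 0.862 to 4.39 and 0.649 to 5.76 CPM. They also overlapped at the Kat6a intron region (0.178 to 0.676 and 0 to 1.14 CPM) and at the Kat7 and Ep300 regions. At the Dhx58 region they did not overlap, at 4.01 to 7.43 and 7.95 to 11.86 CPM, nor at the main Kat6b region. Whether cell mixture or depth had a part in these differences was not tested.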

How the results depend on the processing

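No paired analysis was possible because there was 1 library per genotype, and for the same reason no replicate could be left out. The scale set the size of the epithelial-like change. The median of the 9 genes was -0.62 when scaled to all sites in each library's own peaks, -0.32 with median-of-ratios size factors, -0.29 as sites per cell, -0.33 binarised and -0.37 with each cell thinned to 5000 sites, while the median of all promoters was -0.56, -0.26, -0.23, -0.31 and -0.40. Of the 9 genes, 6 lay below that median in each of these settings except the thinned one, where the median hardly moved and 4 lay below it. Relative to that median Kat2b stayed the highest of the 9 genes in epithelial-like cells under every setting run, by 0.39 to 0.54, where the first 3 settings shift all promoters alike and cannot change this. In fibroblast-like cells the median was -0.32 as sites per cell, both for the 9 genes and for all promoters. On that scale the fibroblast-like loss was thus larger than the epithelial-like one. Kat2b in epithelial-like cells turned to -0.028 when scaled to own peaks, and Kat6b in fibroblast-like cells to -0.16 as sites per cell. Of the other fibroblast-like changes, all with intervals that held 0, Kat2b turned to -0.18 and Hat1 to -0.28 as sites per cell, Kat2b to -0.05 with promoters within 1000 bp, and Kat5 to 0.08 binarised. Kat6a, Kat7, Ep300 and Crebbp also turned, by less than 0.1 from 0, binarised or thinned, and Hat1 with own peaks or size factors. The count of genes lower by at least 1.5-fold in epithelial-like cells was 6 scaled to own peaks, against 45.3% of all promoters, and 1 without the cells of highest doublet score (21.2%), thinned (22.8%), or with promoters within 100 bp (19.2%). Fibroblast-like gene-body regions lower by at least 2-fold numbered 8 as sites per cell (14.4% of those of all genes), 3 binarised (6.12%), and 1 thinned (7.92%) or at 100 sites or more (5.68%). Those higher numbered 4 as sites per cell (6.34%) or binarised (6.86%), and 3 thinned (11.7%) or at 100 sites or more (8.59%). Leaving out clusters 9, 10 and 13, chosen after seeing the data, moved none of the 9 epithelial-like promoter changes beyond its interval. These clusters hold no fibroblast-like cells.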
